A study of Mus musculus with 3 samples.

Results

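Of 1915 mature miRNA entries counted in each of 3 small-RNA libraries, 9 are described here: miR-690, miR-6538, miR-5126, miR-1957a, miR-677-5p, miR-3473a, miR-3470b, miR-5100 and miR-3535. They were selected on their read counts in the B16 exosome and B16 cell libraries, for a much larger share of the miRNA reads in the exosomes, so that contrast is given as a description and is no finding. The groups were exosomes released by B16 cells, exosomes released by JB6 cells, and the B16 cells themselves, with 1 library each and so no replicate check for any difference. B16 is a melanoma line of the mouse. Its labels give the strain C57BL/6J and the disease state melanoma of skin. JB6 is a mouse epidermal line whose labels give the strain BALB/c and a normal state. Exosomes, vesicles of endosomal origin that cells release, had been collected by ultracentrifugation, and RNA was extracted with Trizol. No treatment is given in the labels, and JB6 cells themselves were not analysed here, so for JB6 the vesicles have no parent library beside them.

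A miRNA is normally cut from a hairpin in its primary transcript by Drosha and then by Dicer, and it guides an Argonaute protein to messenger RNAs that pair with its seed, the bases 2 to 8. Not every entry of a miRNA catalogue is such a product. Box C/D small nucleolar RNAs (snoRNAs) guide methylation of ribosomal RNA, B1 and B2 elements are short rodent repeats that RNA polymerase III can transcribe, and fragments of these and of transfer RNA also turn up in small-RNA libraries and in vesicles. A count for an entry that shares its letters with such an RNA cannot say by itself which molecule was read.

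Mature sequences, credited to RefSeq on the mouse build GRCm38.p6, were found for 8 of the 9 entries, and for 1623 of the 1915 entries of the files. They are shown because the entries differ from each other in sequence and several of them match other kinds of RNA. The capitals mark the seed.
miR-690: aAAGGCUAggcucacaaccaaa
miR-3473a: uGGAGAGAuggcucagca
miR-3470b: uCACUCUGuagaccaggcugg
miR-677-5p: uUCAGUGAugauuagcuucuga
miR-3535: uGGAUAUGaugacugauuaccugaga
miR-5100: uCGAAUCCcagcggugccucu
miR-6538: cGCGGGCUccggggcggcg
miR-5126: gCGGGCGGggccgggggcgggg
No seed was shared between these 8 entries. Only the seed of miR-3473a recurred in another entry, miR-882, and that entry was listed at 0 in all 3 libraries. The lengths ran from 18 bases for miR-3473a to 26 for miR-3535, against a median of 22 over the 1623 entries.

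The first group is made of entries whose mature sequence recurs in transcripts of other genes, and they are called repeat-like here for that alone. The whole mature sequence of miR-3470b was found in sense orientation in transcripts of 590 other genes of GENCODE release M21 and in antisense in 504, the most of any of the 1623 entries. It reads as the opposite strand of part of the B1 element. The mature sequence of miR-3473a was found in 147 other genes in sense and in 136 in antisense, and its letters belong to the start of B2-type elements. miR-690 was found in 18 other genes in sense, 15 of them annotated as miRNA genes. A sense match in 10 or more other genes was a property of 3 of these 8 entries and of 9 of all 1623 (0.555%). Among 125 further entries with a sequence that were listed in B16 exosomes, 1 had it.

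miR-3473a and miR-690 are tied by a stretch in the rest of the miR-690 hairpin. The hairpins below are shown for that stretch, in capitals, together with that of miR-3473b, a relative by name.
Mir690: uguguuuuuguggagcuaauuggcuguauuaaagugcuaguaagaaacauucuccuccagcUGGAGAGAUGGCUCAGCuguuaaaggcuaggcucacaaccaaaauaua
Mir3473a: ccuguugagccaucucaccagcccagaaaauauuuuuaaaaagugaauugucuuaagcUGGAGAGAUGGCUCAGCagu
Mir3473b: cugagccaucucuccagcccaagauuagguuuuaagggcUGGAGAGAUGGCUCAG
The capitals hold 17 of the 18 bases of miR-3473a in Mir690 and 16 of them in Mir3473b. All 17 bases were found in 3 of the 1005 hairpins of the table, which were those of miR-690, miR-3473a and miR-3473f. Mir690 is annotated at chr16:28599935-28600043 on the minus strand, in an intron of Fgf12, which encodes a growth factor homologue that acts inside neurons. Mir3473a lies at chrX:162874918-162874995 on the minus strand, in an intron of Syap1, and Mir3473b at chr10:41670739-41670793 on the plus strand. The mature sequence of miR-3470b lies at chr16:44013885-44013905, in an intron of Gramd1c on the opposite strand of that gene.

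The second group is made of snoRNA-like entries. miR-677-5p and miR-3535 overlap genes annotated as snoRNA on the same strand. An overlap with some annotated small RNA gene was a property of 23 of the 1623 entries (1.42%). miR-3535, at chr1:86352062-86352087 on the minus strand, began at base 1 of the snoRNA gene Gm24148, which is 80 bases long and lies within Ncl, the gene of the nucleolar protein nucleolin. miR-677-5p, at chr10:128085291-128085312 on the plus strand, began at base 3 of a snoRNA gene of 72 bases that lies in an intron of Atp5b, the beta subunit of mitochondrial ATP synthase. Both hairpins, Mir677 at chr10:128085286-128085363 and that of miR-3535, which RefSeq also names Gm24148, at chr1:86351981-86352127, are shown with the letters NUGAUGA in capitals, which take in the C box of box C/D snoRNAs. Any base was allowed at the first of these letters, so a marked stretch need not be a C box.
Mir677: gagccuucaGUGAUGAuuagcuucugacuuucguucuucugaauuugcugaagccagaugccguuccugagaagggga
Gm24148: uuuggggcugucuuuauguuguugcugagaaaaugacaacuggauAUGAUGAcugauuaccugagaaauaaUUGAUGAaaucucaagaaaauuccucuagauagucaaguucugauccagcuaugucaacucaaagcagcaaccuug
Within the mature sequences the motif was present in miR-677-5p and miR-3535 and in 12 of the 1623 entries in sense (0.739%), or 17 on either strand (1.05%). Over whole hairpins it was present in 27 of 1005 in sense (2.69%) and in 36 on either strand (3.58%).

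Of the remaining sequences, miR-5100 had a motif of transfer RNA genes in its hairpin, and miR-5126 and miR-6538 were rich in G and C. The hairpin of miR-5100, at chr11:60728663-60728726 in an intron of Mief2, an adaptor of mitochondrial fission, held the letters of the B box, the internal promoter element of transfer RNA genes. They stand in capitals here, and any base was allowed at the seventh and the eighth of them.
Mir5100: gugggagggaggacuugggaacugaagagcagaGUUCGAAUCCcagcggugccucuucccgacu
The motif was found in 3 of 1005 hairpins (0.299%), all 3 in sense, with both strands searched. miR-5126 was composed of G and C alone, the only such entry among the 1623, and miR-6538 was 94.7% G and C, a share that 4 entries reached or passed. The median over the 1623 entries was 52.2%. miR-6538, at chr12:26414970-26414988 on the minus strand, lies in an intron of Rnf144a, which encodes a ubiquitin ligase, 267 bases from the start of that gene. miR-5126, at chr1:84695890-84695911 on the plus strand, lies opposite an exon of Dner, which encodes a Notch ligand of neurons. The hairpin of miR-1957a lies at chr4:119129779-119129844 on the plus strand, in an intron of Slc2a1, the gene of the main glucose transporter of many cells. The thresholds and both motifs were chosen after the sequences had been seen.

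The predicted folds of the hairpins were spread over the range of the catalogue. The minimum free energy per 100 bases was -22.4 kcal/mol for Mir677, -26.1 for the hairpin of miR-3535 and -26.6 for Mir690, against a median of -41.3 over 1528 entries with a hairpin. These were weak folds, since 21, 55 and 64 of the 1528 entries were as weak or weaker. Mir5126 lay at the other end with -62.9 kcal/mol, and Mir5100 (-38.8), Mir6538 (-47.0) and Mir3473a (-48.3) lay near the middle. In all, 4 of 7 hairpins of these entries were at -40 kcal/mol per 100 bases or weaker, beside 45.5% of all, which is close to the background.

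**Figure D1:**
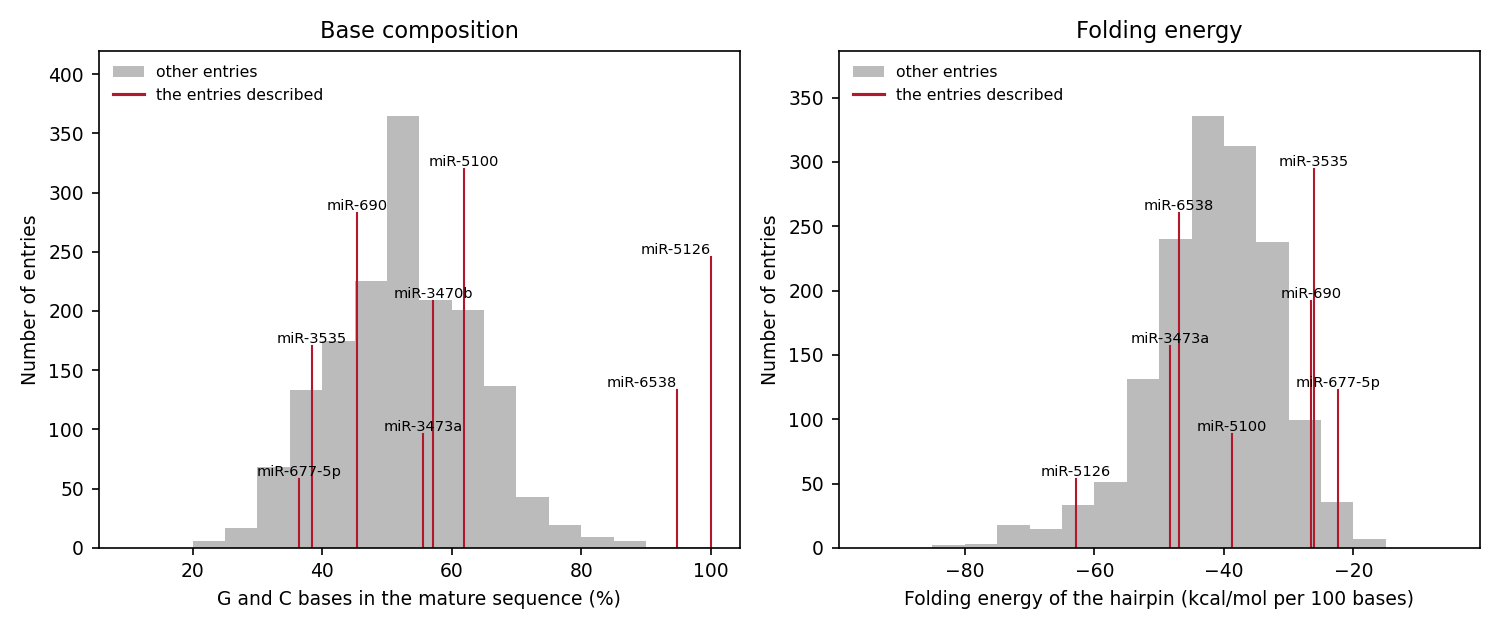
Left, share of G and C bases in the mature sequence (x axis, percent) for 8 of the entries as red lines and for the other entries as a grey histogram (y axis, number of entries). Right, minimum free energy of the hairpin in kcal/mol per 100 bases, for 7 of the entries. The height of a red line only makes room for its name. miR-6538 and miR-5126 stand at the right end of the left panel, and miR-677-5p, miR-3535 and miR-690 near the right, weakly folded end of the right panel.

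Reads assigned to miRNA entries numbered 45677 in B16 exosomes, 4495956 in JB6 exosomes and 7925726 in B16 cells. The authors' own normalized column rests on a larger total, of which the miRNA reads were 5.39% in B16 exosomes, 79.9% in JB6 exosomes and 90.9% in B16 cells. No file listed a count from 1 to 9, so a listed 0 stands for at most 9 reads, or 197, 2.002 and 1.14 RPM (reads per 1000000 miRNA reads of the library) in B16 exosomes, JB6 exosomes and B16 cells. The melanocyte miRNAs miR-211-5p and miR-204-5p summed to 83 reads in B16 exosomes (1817 RPM), 14 in JB6 exosomes (3.11 RPM) and 21140 in B16 cells (2667 RPM). Of 7 epithelial and keratinocyte miRNAs none was listed in B16 exosomes, 2 were listed in JB6 exosomes with 35 reads (7.78 RPM), and 4 in B16 cells with 197 reads (24.9 RPM). The JB6 vesicles thus carried little of the markers of an epidermal line. The liver miRNA miR-122-5p had 24, 1129522 and 421 reads in the same order (525, 251231 and 53.1 RPM). The 3 muscle miRNAs, the 2 red-cell miRNAs and the 3 leukocyte miRNAs were listed at 0 in B16 exosomes. They summed to 16665, 33600 and 110 reads in JB6 exosomes (3707, 7473 and 24.5 RPM) and to 11, 166 and 375 in B16 cells (1.39, 20.9 and 47.3 RPM). A listed 0 in B16 exosomes stands for up to 197 RPM. That is above the B16 cell sums of the epithelial, muscle, red-cell and leukocyte lists, so these zeros cannot show a difference from B16 cells. The part that these marker levels have in the ratios given here was not tested.

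The 9 entries together made up 4.26% of the miRNA reads of B16 exosomes (1945 reads, exact 95% interval 4.07 to 4.45), 0.0353% of those of JB6 exosomes (1587 reads, 0.0336 to 0.0371) and 0.0412% of those of B16 cells (3262 reads, 0.0398 to 0.0426). All 9 were listed in B16 exosomes, 5 in JB6 exosomes and 8 in B16 cells. In B16 exosomes miR-1957a supplied 41.3% of the reads of the 9, and the other 8 entries made up 2.50% of the miRNA reads. With the authors' totals in place of the miRNA reads, the 9 entries made up 0.229% in B16 exosomes, 0.0282% in JB6 exosomes and 0.0374% in B16 cells. In JB6 exosomes miR-6538 alone supplied 91.9% of the reads, and the other 8 entries summed to 129 reads, or 0.00287%. Since reads were counted without molecular identifiers, they may be copies of 1 molecule, and every interval covers counting error only. In a share of reads, more of an entry and less of everything else cannot be told apart.

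**Figure D2:**
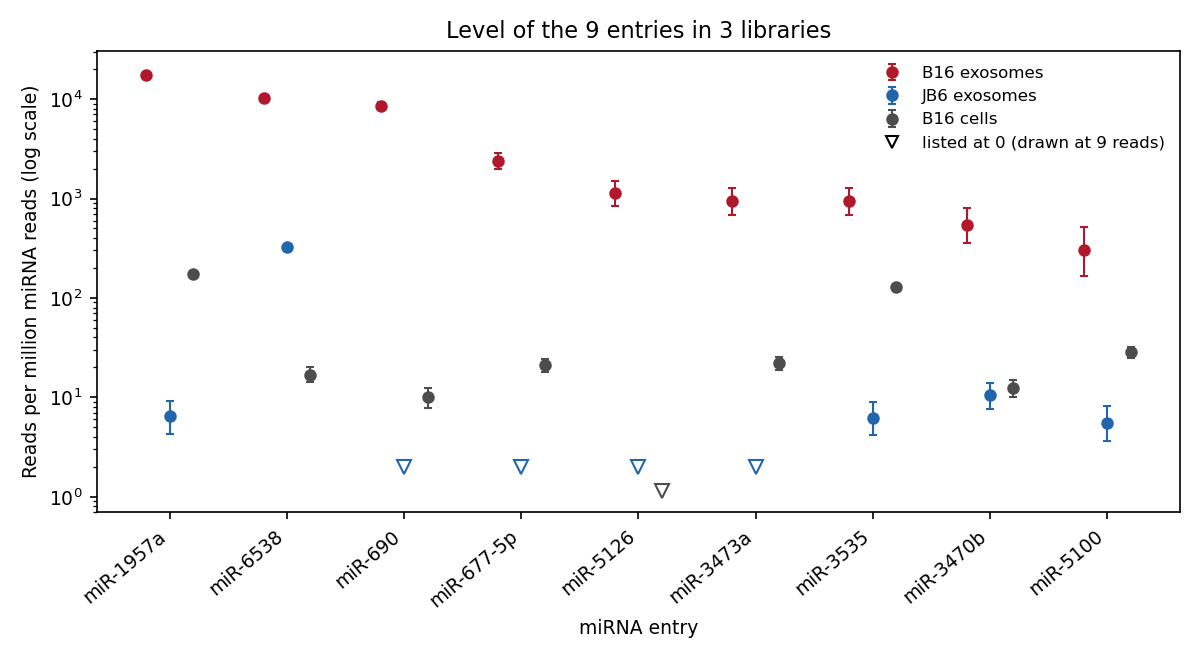
RPM, the reads per 1000000 miRNA reads (y axis, log scale), of each entry (x axis, ordered by level in B16 exosomes) in B16 exosomes (red), JB6 exosomes (blue) and B16 cells (grey). Bars are exact 95% counting intervals, and open triangles mark a listed 0, drawn at 9 reads. Every red point lies above the blue and grey points of its entry, and miR-6538 is the one entry whose blue point lies well above the grey one.

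miR-1957a was the most frequent of them in B16 exosomes. It had 804 reads in B16 exosomes (17602 RPM), 29 in JB6 exosomes (6.45 RPM) and 1373 in B16 cells (173 RPM). It stood at rank 15 of the 149 entries listed in B16 exosomes. The share in B16 exosomes was 102-fold that in B16 cells (93.0 to 111).

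miR-6538 had 464 reads in B16 exosomes (10158 RPM), 1458 in JB6 exosomes (324 RPM) and 134 in B16 cells (16.9 RPM). It was the only entry of the 9 with more than 47 reads in JB6 exosomes. The share in B16 exosomes was 601-fold that in B16 cells (495 to 734).

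miR-690 is known in mouse as a miRNA of macrophage exosomes that improves insulin sensitivity. It had 390 reads in B16 exosomes (8538 RPM), a listed 0 in JB6 exosomes and 79 in B16 cells (9.97 RPM). The share in B16 exosomes was 857-fold that in B16 cells (671 to 1105). At the share it held in the cells, 0.455 reads would be due at the depth of the B16 exosome library.

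miR-677-5p, of the snoRNA-like group, had 110 reads in B16 exosomes (2408 RPM), a listed 0 in JB6 exosomes and 167 in B16 cells (21.1 RPM), and its share was 114-fold that in B16 cells (89.0 to 146). The other arm of the same hairpin, miR-677-3p, was listed at 0 in all 3 libraries. miR-3535, the other snoRNA-like entry, had 43 reads in B16 exosomes (941 RPM), 28 in JB6 exosomes (6.23 RPM) and 1010 in B16 cells (127 RPM). With a ratio of 7.39 (5.31 to 10.02) it stood lowest of the 9 against B16 cells.

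miR-5126, of G and C alone, had 52 reads in B16 exosomes (1138 RPM) and was listed at 0 in JB6 exosomes and in B16 cells. Taking 9 reads for the listed 0, its share was at least 1003-fold that in B16 cells, and the counting interval around that bound reached down to 490-fold. miR-3473a had 43 reads in B16 exosomes (941 RPM), a listed 0 in JB6 exosomes and 176 in B16 cells (22.2 RPM), a ratio of 42.4 (29.6 to 59.5). miR-3470b had 25 reads in B16 exosomes (547 RPM), 47 in JB6 exosomes (10.5 RPM) and 98 in B16 cells (12.4 RPM), a ratio of 44.3 (27.3 to 69.2). miR-5100, with the B box letters in its hairpin, had 14 reads in B16 exosomes (306.5 RPM), 25 in JB6 exosomes (5.56 RPM) and 225 in B16 cells (28.4 RPM). Its ratio was 10.8 (5.81 to 18.5).

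The order of these ratios among the 9 entries does not depend on how the libraries are scaled. miR-5126, miR-690 and miR-6538 formed the upper part, and the intervals of miR-690 and miR-6538 overlapped. The ratio of miR-5126 is a lower bound. Its interval overlapped that of miR-690 at this bound only, so an overlap between them is not established. miR-677-5p and miR-1957a followed and overlapped each other, then miR-3470b and miR-3473a, then miR-5100 and miR-3535. Between these 4 sets the intervals of neighbours did not overlap. These intervals cover counting error only, without replicate libraries, and the entries were chosen on the same counts. The sets are therefore a description and not resolved classes. The highest ratio, a bound, was at least 136 times the lowest. The groups by sequence were not the groups by ratio: the repeat-like entries ran from 42.4 to 857, and the snoRNA-like entries stood at 114 and 7.39.

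A ratio of at least 2-fold with an interval that excludes 1, among entries with at least 30 reads in the pair, was reached by all 9 entries in B16 exosomes against B16 cells, where 8.53% of 422 entries were higher and 7.82% lower. The choice of the entries fixed that count. The scaling set its size. With TMM factors and with DESeq2 size factors all 9 remained higher. With the authors' totals 7 were higher, from 2.51 for miR-3473a to 50.8 for miR-690 and at least 59.4 for miR-5126, while miR-5100 was neither higher nor lower by the rule at 0.640 and miR-3535 turned lower at 0.438. Of these entries, miR-5100 and miR-3535 had the lowest ratios under the total of miRNA reads.

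**Figure D3:**
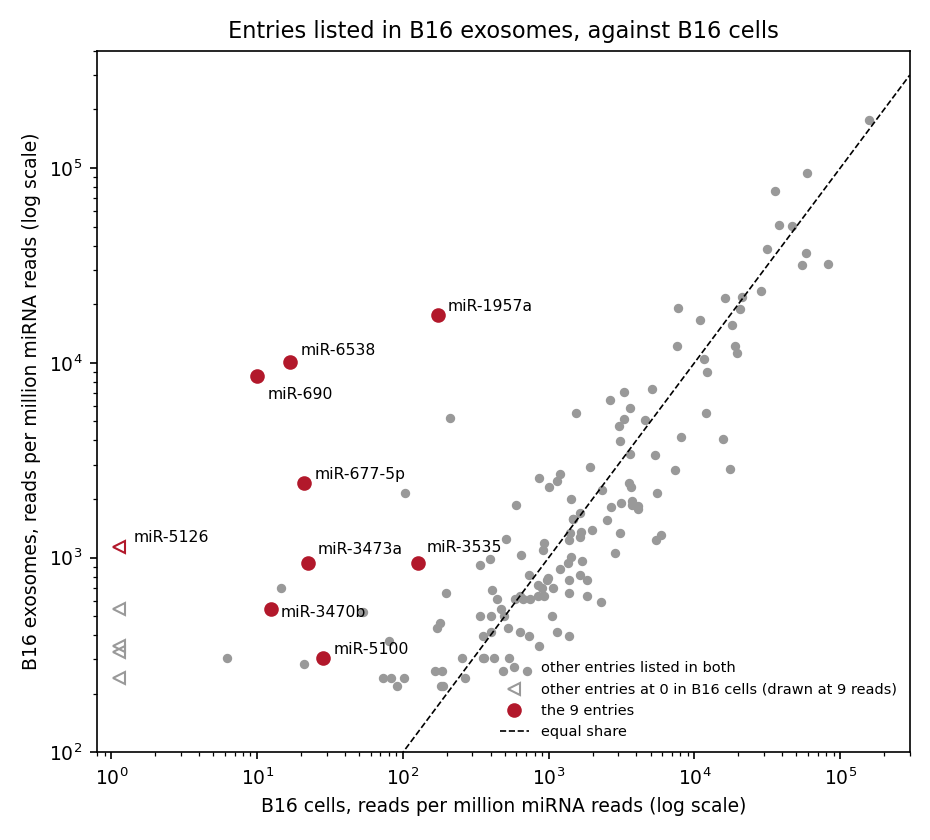
RPM, the reads per 1000000 miRNA reads, in B16 exosomes (y axis) against B16 cells (x axis), both on log scales, for the entries listed in B16 exosomes. Red symbols are the 9 entries, grey symbols the others, triangles mark a listed 0 in B16 cells drawn at 9 reads, and the dashed line marks an equal share. The 9 entries lie above the dashed line, with miR-5126, miR-690 and miR-6538 farthest above it, and 4 grey triangles share the left edge with miR-5126.

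The stated rule for the choice of the entries used no JB6 exosome counts. The entries were chosen with earlier results known, so these counts cannot be called independent of the choice. Against B16 cells, whose counts did take part in it, 1 of 8 entries with enough reads was higher, 6 were lower and miR-3470b was neither. Over all 501 entries 26.1% were higher and 60.7% lower, so these counts are near the background. The median log2 ratio was -2.87 over the 8 entries and -1.75 over all. miR-6538 was the higher one, at 19.2-fold (16.1 to 23.1), and it stayed higher under each scaling tried, from 16.9-fold with the authors' totals to 115-fold with DESeq2 size factors. miR-1957a was 26.9-fold lower (18.6 to 40.3) and miR-3535 20.5-fold lower (14.1 to 31.0), and both stayed lower under each scaling tried. miR-677-5p, miR-3473a and miR-690, with a listed 0 in JB6 exosomes, were at least 10.5-fold, 11.1-fold and 4.98-fold lower, and miR-5100 was 5.11-fold lower (3.37 to 8.06). None of these 4 was lower with DESeq2 size factors, where miR-5100 stood at a ratio of 1.17, and miR-690 was not lower with TMM factors either. miR-3470b, with a ratio of 0.845 (0.584 to 1.21), turned higher with TMM (2.15) and with DESeq2 (5.05). miR-5126 was listed at 0 in both libraries.

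**Figure D4:**
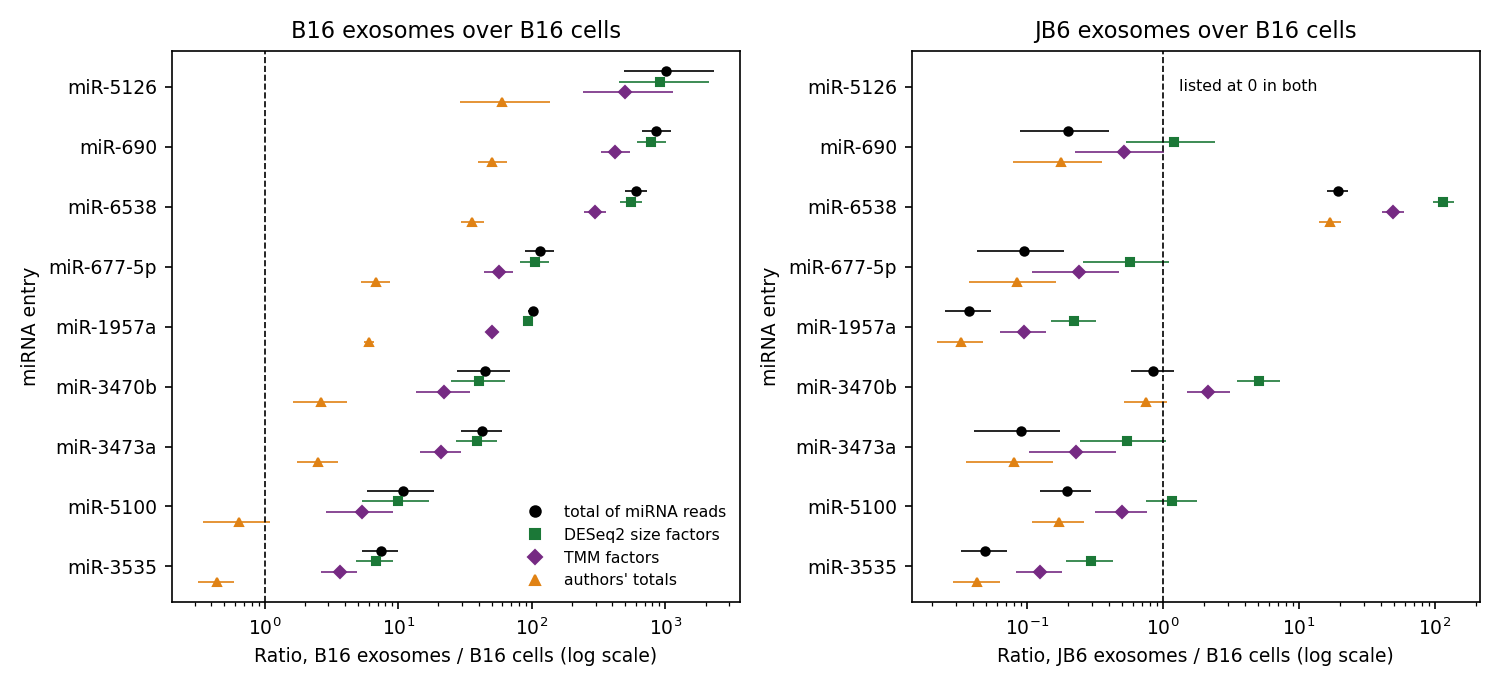
Ratio of shares (x axis, log scale) of each entry (y axis) in B16 exosomes over B16 cells (left) and in JB6 exosomes over B16 cells (right) under 4 scalings, marked by symbol and colour. Bars are 95% counting intervals, a listed 0 was set to 9 reads, and the dashed line marks a ratio of 1. In the left panel miR-5100 and miR-3535 cross the line with the authors' totals, and in the right panel miR-6538 alone lies far to the right of it under every scaling drawn.

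B16 exosomes were also set against JB6 exosomes, where cell line, strain and disease state go together. All 9 entries were higher, beside 31.3% of 300 entries higher and 11.7% lower, and the B16 exosome values that chose them are part of this ratio too. miR-6538 had the smallest ratio, 31.3 (28.2 to 34.8). For miR-1957a the ratio was 2729 (1885 to 4101), for miR-3535 151 (91.8 to 253), for miR-5100 55.1 (26.5 to 110.2) and for miR-3470b 52.4 (30.9 to 86.8). With a listed 0 in JB6 exosomes, miR-690 was at least 4265-fold higher, miR-677-5p 1203-fold, miR-5126 569-fold and miR-3473a 470-fold. All 9 stayed higher under TMM, DESeq2 and the authors' totals, where the lowest value was 2.11 for miR-6538.

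The entries were also set against relatives that carry the same number. miR-3473b shares 16 bases with miR-3473a, and it had 21 reads in B16 exosomes, 310 in JB6 exosomes and 1432 in B16 cells. For each read of miR-3473b there were 2.05 reads of miR-3473a in B16 exosomes and 0.123 in B16 cells, which makes the excess of miR-3473a 16.6 times that of miR-3473b (exact interval 9.39 to 30.2). In JB6 exosomes there was at most 0.0290 read of miR-3473a per read of miR-3473b, at least 4.23-fold fewer than in B16 cells (2.15 to 9.51). These contrasts between 2 entries of the same libraries do not depend on scaling. miR-3473a was chosen for its ratio of B16 exosomes to B16 cells and miR-3473b was not. The choice thus favoured the contrast in B16 exosomes, which is given as a description. The sources used here do not say how reads that match more than 1 entry were counted, so the split between these near-identical entries is uncertain.

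miR-3470a had a listed 0 in B16 exosomes, 84 reads in JB6 exosomes and 27 in B16 cells. Per read of miR-3470a there were 0.560 reads of miR-3470b in JB6 exosomes and 3.63 in B16 cells, 6.43-fold fewer (3.60 to 11.8). In B16 exosomes there were at least 2.78 reads of miR-3470b per read of miR-3470a, at least 0.767 times the value in B16 cells (0.301 to 2.09), so no difference between these relatives was shown there. miR-3473g had 80 reads in JB6 exosomes and was listed at 0 in both B16 libraries, while miR-3473d had 27 reads in B16 cells alone. The other 5 relatives, miR-677-3p, miR-1957b, miR-3473c, miR-3473e and miR-3473f, were listed at 0 throughout. When entries of 1 number were summed, miR-3473 had a ratio of 6.79 in B16 exosomes against B16 cells and miR-3470 one of 34.7.

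All 4 entries with matches in 10 or more other genes and 30 or more reads in the B16 libraries, miR-690, miR-3473a, miR-3470b and miR-3473b, were higher in B16 exosomes than in B16 cells, with a median log2 ratio of 5.44 against 1.82 over all 422 entries. In JB6 exosomes against B16 cells none of the 4 was higher, 3 were lower and 1 was neither. Since 3 of the 4 are among the entries chosen for the first ratio, nothing is read from it.

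Most entries over a small RNA gene could not be resolved in B16 exosomes. Of 23 entries over an annotated snoRNA, scaRNA or other small RNA gene, 13 had 30 or more reads over the B16 libraries. Of these, 3 were higher in B16 exosomes, which were miR-677-5p, miR-3535 and miR-1839-5p (2.16, 1.78 to 2.61). Another 2 were neither, 8 were not resolved and none was lower, beside 8.53% higher and 7.82% lower of all 422 entries. Since miR-677-5p and miR-3535 were chosen for this ratio, nothing is read from that count. The 2 that were neither, miR-1843a-5p and miR-1843b-5p, lie over the small Cajal body RNAs Scarna3b and Scarna3a and had ratios of 0.855 (0.467 to 1.44) and 0.726 (0.396 to 1.22). In JB6 exosomes against B16 cells 1 of 14 such entries was higher, 9 were lower, 3 were neither and 1 was not resolved. Over all entries 26.1% were higher and 60.7% lower, so the lower ones were near that background and the higher ones below it.

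A list of 23 entries suspected to be fragments or repeats had 13 in the files, of which 8 had enough reads in the B16 libraries. Of these, miR-1839-5p was higher, miR-5099 was neither with a ratio of 0.513 (0.442 to 0.592) and 6 were not resolved. Of all 422 entries, 8.53% were higher and 7.82% lower. Against JB6 exosomes, B16 exosomes had 3 of 6 higher, none lower and 3 not resolved. Over all 300 entries of that comparison 31.3% were higher and 11.7% lower. In JB6 exosomes against B16 cells 3 of 9 were higher and 6 lower, close to the background of 26.1% higher and 60.7% lower over all entries. On the list, miR-2137, miR-6236 and miR-6240 were listed at 0 in B16 cells and had 25, 16 and 15 reads in B16 exosomes, too few for the minimum. Together with miR-5126 and miR-6481, which had 11 reads and was noticed after its values were seen, they were all 5 of the 149 entries of B16 exosomes that were listed at 0 in B16 cells. Of these, miR-2137 alone was listed in JB6 exosomes, with 146 reads.

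High catalogue numbers, which go to entries added late, were carried by most of the 9 and by most entries in the files. Numbers of 1000 or above were carried by 7 of the 9 and by 55.7% of all entries in the files. Among the 149 entries listed in B16 exosomes, which include the 9, the share was 14.8%. These 7 supplied 1445 of the 2116 reads of such entries in B16 exosomes (68.3%). Of 104 other entries with such a number and enough reads, 4 were higher in B16 exosomes than in B16 cells (3.85%), 2 lower, 6 neither and 92 not resolved. Over all 422 entries 8.53% were higher and 7.82% lower. All 5 entries of B16 exosomes that were listed at 0 in B16 cells had such a number.

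The entries outside the 9 that were higher in B16 exosomes than in B16 cells had few or many reads in JB6 exosomes. By the interval limit nearest to 1, the 5 highest outside the 9 were miR-127-3p, miR-379-5p, miR-100-5p, miR-148a-3p and miR-199a-5p, with ratios of 48.3, 49.6, 24.8, 20.8 and 13.7. They had 5685, 615, 44046, 979782 and 616 reads in JB6 exosomes, while 8 of the 9 entries described here had at most 47 and miR-6538 had 1458. Further down the same order, miR-704, miR-182-5p and miR-143-5p had 11, 28 and 38 reads in JB6 exosomes and miR-138-5p and miR-7688-5p were listed at 0, so few JB6 reads were no trait of the 9 alone. miR-5100 and miR-3535 stood below these 5 and below miR-122-5p in that order, so the ratio alone does not separate the 9 from the rest.

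Measured by Euclidean distance of log2 RPM over the 3 libraries, with a listed 0 set to 9 reads, the entries nearest to the median profile of the 9 were miR-335-5p, miR-744-3p, miR-221-5p, miR-497b and miR-8112, at 2.55 to 2.61. All 5 were listed at 0 in B16 exosomes, so their likeness rests on the level given to a listed 0. Among entries listed in B16 exosomes, a restriction added afterwards, the nearest were miR-704 at 2.78, miR-182-5p at 2.99, miR-143-5p at 3.25, miR-138-5p at 3.51 and miR-7688-5p at 3.64. miR-704, the nearest of these, had 17 reads in B16 exosomes, 11 in JB6 exosomes and 637 in B16 cells.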

How the data were processed

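Small RNA of 3 libraries was sequenced. Among the tools, bcl2fastq and BWA appear in the submitters' processing notes, as does the build mm10. Versions, strand settings and the handling of reads with several matches were not given in the sources used here. A deposited file gives, per the file headers, a count of reads per mature miRNA, not normalized. The deposited RPM value equals that count times a constant, scaled to a total whose content no source used here states.

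From the counts, shares with exact (Clopper-Pearson) 95% intervals and ratios of shares with conditional binomial 95% intervals were computed (scipy 1.17.1). With 1 library per group no test across libraries was run. An entry was called higher or lower at 30 or more reads over the pair, a ratio of at least 2-fold and an interval that excludes 1. A listed 0 was set to 9 reads, and such an entry was called not resolved where its bound did not meet the rule. TMM factors came from edgeR 4.0.16 and size factors from DESeq2 1.42.0.

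The 9 entries and all lists were chosen with earlier results of these data known, and the thresholds and motifs for sequences after the sequences were seen. Named outside the 9 were relatives by number, members of the lists, the 5 entries nearest in profile and the 5 with the highest ratio. RefSeq sequences were searched exactly in GENCODE M21 transcripts, leaving out genes at the entry's own locus, because a genome sequence was not used here. Hairpins were folded with RNAfold 2.7.2.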

Additional observations from a re-analysis of the deposited data

How the results depend on the processing

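In JB6 exosomes against B16 cells, miR-690 was not resolved with TMM (ratio at most 0.512) and with DESeq2 (at most 1.20). miR-677-5p and miR-3473a were not resolved with DESeq2 (at most 0.568 and 0.539). miR-5100 stood at 1.17 with DESeq2, and miR-3470b at 2.15 with TMM and 5.05 with DESeq2. In B16 exosomes against B16 cells the authors' totals gave 0.640 for miR-5100 and 0.438 for miR-3535, so 1 of the 9 was lower. In JB6 exosomes against B16 cells, TMM and DESeq2 made 2 of the entries higher, and DESeq2 left 2 lower. The minimum of 100 reads left 4 of the 9 in B16 exosomes against JB6 exosomes, all higher. Over all entries, B16 exosomes against B16 cells had 36 higher and 33 lower, against 16 and 93 with TMM, 9 and 257 with the authors' totals, and 23 and 14 when the interval had to lie beyond 2-fold. Summing entries of 1 number left 19 lower. B16 exosomes against JB6 exosomes had 94 higher and 35 lower, against 61 and 97 with TMM, 57 and 109 with DESeq2, and 40 and 153 with the authors' totals. JB6 exosomes against B16 cells had 131 higher and 304 lower, against 204 and 134 with DESeq2, 202 lower with TMM, and 87 and 156 with entries of 1 number summed. Each scaling, by its construction, moves every log2 ratio of a comparison by 1 constant, which for B16 exosomes against B16 cells was -1.02 with TMM, -0.13 with DESeq2 and -4.08 with the authors' totals. The stricter interval and the sums left fewer calls or entries by their construction. All 9 changes of call among the ratios of the 9 entries came with TMM, DESeq2 and the authors' totals, with 26 ratios under each. Totals without the 10 most abundant miRNAs of each library, or without the 9 entries, changed no call. A minimum on reads cannot change a ratio, but the minimum of 100 reads left only 19 of them to be called. The summed share of the 9 entries was 0.229% in B16 exosomes, 0.0282% in JB6 exosomes and 0.0374% in B16 cells with the authors' totals, and 2.50%, 0.00287% and 0.0238% without the most frequent of them in each library. Allowing 1 mismatch in the transcripts left the same count of 3 entries with matches in 10 or more other genes. The search of the genome was not run. No paired analysis was possible because each group held 1 library. Depth limits the B16 exosome values most, where 10 reads were 218.9 RPM.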
